A study of Mus musculus with 24 samples.

Results

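The centromere-proximal ends of the mouse autosomes are described here as the first 11 bins of 1 Mb, counted from the centromeric end, of each of chromosomes 1 to 19, among bins with a mean count of at least 100 reads. This gave 209 bins of 2582 tested on the autosomes and X. On 18 autosomes the first such bin starts at base 3000001 (mm10), and on chromosome 9 at 2000001. The bins to their left held a mean of at most 3.33 reads, and the lowest mean count of a member was 11897 reads. The members are compared with the last 11 bins of each autosome (209 distal bins) and with the 1996 remaining autosomal bins, called interior.

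The assay was ChIP-seq of γH2AX, the phosphorylated histone variant, of total H2AX, and of input DNA, in female TTF cells from a C57BL6/CAST hybrid mouse background. The cells lacked SIRT7 (KO), a deacylase of chromatin, or were wild type (WT). A further set held KO clones c22 and c9 carrying SIRT7-WT, clones c5 and c7 named HY, an abbreviation that the labels leave unexplained, and KO clones c22 and c9 themselves. According to the labels, every group had received 5 Gy of X-rays and 30 minutes of recovery, and no sample is labelled as unirradiated. The 24 samples form 12 groups of 2. Columns of the WT/KO table end in NT or Xray although every label states X-rays, so the 2 libraries of a group are called NT-named and Xray-named and were treated as replicates. What NT stands for is not given, and that the NT-named libraries were irradiated rests on the labels alone. Libraries of the WT/KO table held 170013624 to 268180310 reads, with 58006 to 93626 in the median member bin. Clone libraries held 70349148 to 155364952, with 25549 to 57076. The clone table also holds WT libraries. Those of its WT replicate 1 held 88317834 to 157244803 reads, with 28801 to 53290 in the median member bin. The 209 bins held 9.17% to 9.36% of the tested reads in KO and WT cells and 8.24% to 9.09% in the clones.

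Mouse autosomes are telocentric, so the centromere and its satellite repeats lie at one end, next to the first assembled sequence. The satellite arrays themselves are largely missing from the assembly, and reads from them can align only to the few copies that it holds. γH2AX is formed when kinases such as ATM, ATR and DNA-PK phosphorylate H2AX already in chromatin, and it spreads over long domains around DNA breaks. A γH2AX level therefore depends on the H2AX present as well as on its phosphorylation, and both are set here against input DNA. Chromosomes 12, 15, 16, 18 and 19 carry ribosomal DNA arrays near the centromere in many mouse strains.

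The 209 bins were not gene-poor as a class. They held a median of 5 protein-coding genes (quartiles 2 and 9), against 7 in distal and 5 in interior bins, and 22 held none. The median was 9 genes in the first bin and 7 in the second and the third, and 3 to 5 from the fourth bin on. As examples of bins with many and with few genes, the 250 bases upstream of the start of 1 gene each are given for a gene-dense bin with high γH2AX (Capn1, a calpain protease, chr19:6015248-6015497, minus strand), a bin with a large excess of γH2AX over H2AX (Snn, chr16:11066048-11066297, plus strand) and the bin with the lowest H2AX over input (Sema3d, a guidance semaphorin, chr5:12382916-12383165, plus strand). The sequences are from RefSeq, build GRCm38.p6, and capitals mark the dinucleotide CG, which reads the same on both strands.
Capn1: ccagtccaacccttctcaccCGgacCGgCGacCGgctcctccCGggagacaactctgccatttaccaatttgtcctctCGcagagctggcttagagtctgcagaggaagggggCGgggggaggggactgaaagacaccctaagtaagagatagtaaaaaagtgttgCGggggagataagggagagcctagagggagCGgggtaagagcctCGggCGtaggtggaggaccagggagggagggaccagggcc
Snn: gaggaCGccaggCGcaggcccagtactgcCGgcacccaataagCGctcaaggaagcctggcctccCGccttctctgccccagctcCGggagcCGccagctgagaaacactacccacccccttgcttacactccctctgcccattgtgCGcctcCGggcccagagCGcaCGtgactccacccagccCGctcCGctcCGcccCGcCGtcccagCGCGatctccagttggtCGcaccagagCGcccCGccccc
Sema3d: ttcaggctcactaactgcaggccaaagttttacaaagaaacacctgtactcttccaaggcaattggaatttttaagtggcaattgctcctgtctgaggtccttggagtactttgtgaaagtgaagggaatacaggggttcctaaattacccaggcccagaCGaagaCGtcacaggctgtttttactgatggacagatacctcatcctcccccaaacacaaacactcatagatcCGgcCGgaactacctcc
The Capn1 stretch holds 11 CG, the Snn stretch 21 and the Sema3d stretch 4. Over all 32851 upstream stretches in the reference table the median was 6, and 92.1% held at least 1. The 54 starts in the chromosome 19 bin had a median of 16.5, and the 20 in the chromosome 16 bin 17.

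Relative to input, γH2AX at the proximal ends stood near the level of the chromosome interiors and below that of the distal ends. The median log2 ratio of γH2AX CPM (reads scaled by library size, with TMM factors) to the mean input CPM of the same genotype was -0.01 in the NT-named and -0.04 in the Xray-named KO library, and 0.01 and -0.01 in the WT libraries. Over interior bins it was -0.03 and -0.03 in KO and 0.00 and 0.00 in WT, and over distal bins 0.09 and 0.09 in KO and 0.14 and 0.14 in WT. H2AX gave the same order. Its proximal medians were -0.03 and -0.03 in KO and -0.01 and 0.00 in WT, with distal medians of 0.07 and 0.09 in KO and 0.11 and 0.13 in WT. The proximal median of each of the 8 libraries differed from its interior median by less than 0.02.

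By distance, the signal was highest in the first 2 bins. In γH2AX the first bin had a median log2 change over input of 0.11 in KO and 0.10 in WT (19 bins each), and the second 0.04 in KO and 0.08 in WT. From the third to the eleventh bin the medians ran between -0.08 and 0.03 in KO and between -0.06 and 0.04 in WT. H2AX was flatter, with 0.01 in KO and 0.04 in WT in the first bin and 0.03 and 0.06 in the second. Its lowest median of KO was -0.07, and of WT -0.06. Just inside the limit of 11 bins the γH2AX medians were -0.08 in KO and -0.06 in WT, and just outside it, in the twelfth bin, -0.13 and -0.09. The first bins are also those with the most genes.

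**Figure D1:**
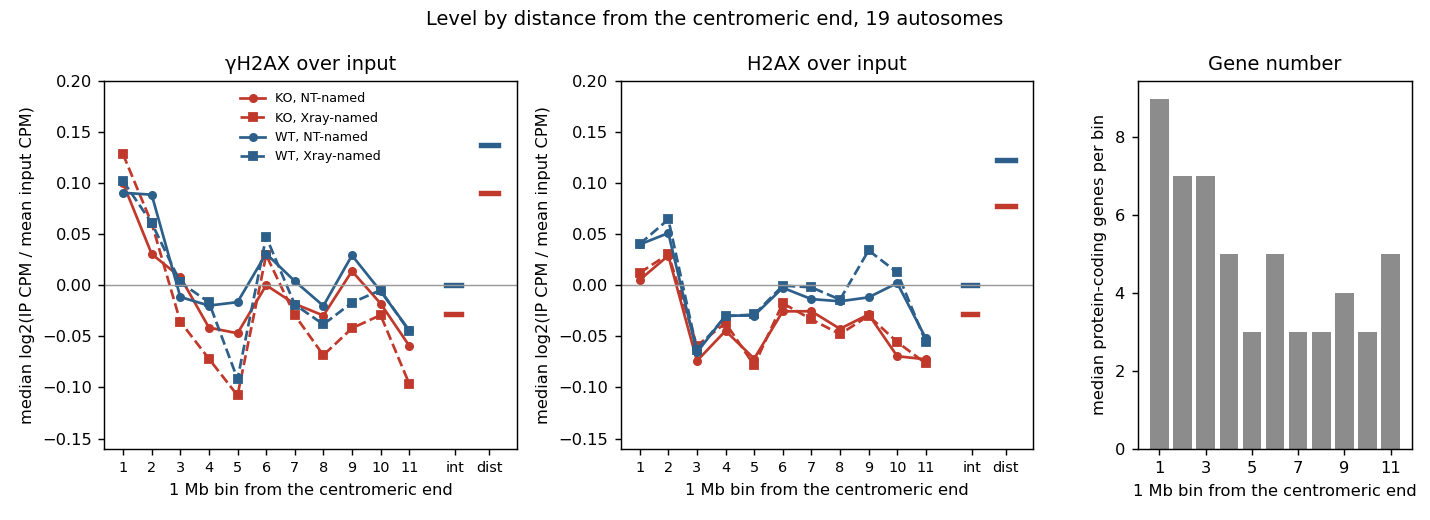
Median log2 ratio of γH2AX (left) and H2AX (middle) CPM to the mean input CPM of the same genotype, by 1 Mb bin from the centromeric end over 19 autosomes, for KO (red) and WT (blue) libraries, with short bars for the mean of the 2 library medians over interior (int) and distal (dist) bins. The right panel gives the median number of protein-coding genes per bin; γH2AX and gene number are both highest in the first bin (9 genes), and all proximal medians from the third bin on lie below the distal bars.

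Single bins were tested with edgeR's quasi-likelihood F test, fitted to all 12 WT and KO libraries, with Benjamini-Hochberg adjustment over 2582 bins and a threshold of 0.05. γH2AX was higher than input in 58 of 209 members in KO and in 69 in WT, where 25.3% and 34.6% of all bins were higher. It was lower in 71 members in KO and 59 in WT, against 36.3% and 35.3% of all bins. H2AX was higher than input in 38 members in KO and 55 in WT, against 21.4% and 30.5% of all bins, and lower in 63 and 50, against 28.2% and 25.9%. As shares of the members, γH2AX was higher in 27.8% and lower in 34% for KO, and higher in 33% and lower in 28.2% for WT, near those of all bins. Distal bins had 52.6% higher in KO and 61.2% in WT. Scaling to the autosomal total gave 53 higher and 82 lower members in γH2AX of WT and 45 and 71 in H2AX of WT. DESeq2 size factors gave 66 and 51 in γH2AX of KO. The split between higher and lower therefore depends on the scaling. Without the Xray-named input KO library 55 members passed in γH2AX of KO, without the Xray-named γH2AX KO library 68, without the NT-named input KO library 76 and without the Xray-named γH2AX WT library 82 in WT. In H2AX of KO 47 passed without the Xray-named H2AX library, 57 without the NT-named input library and 64 without the Xray-named one, and in WT 65 without the Xray-named H2AX library. Restricted to the compared groups, 73 members passed in γH2AX of KO and 156 in H2AX of KO.

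The direction of a member followed its gene content. Of 39 gene-rich members (more than 11 protein-coding genes), γH2AX was higher than input in 26 in KO and 27 in WT, and lower in 4 and 4. Of 49 gene-poor members (fewer than 2 genes), 2 were higher in KO and 2 in WT, and 29 and 28 were lower. The median log2 changes were 0.15 and 0.17 in gene-rich and -0.15 and -0.14 in gene-poor members. H2AX had 22 gene-rich members higher in KO and 25 in WT, and 16 and 11 gene-poor members lower, with 4 and 7 gene-poor members higher. Over the 209 members the rank correlation of γH2AX over input with gene number was 0.56 in KO and 0.58 in WT, and over 2205 other autosomal bins 0.63 and 0.67. With H2AX it was 0.48 and 0.42 in members, and 0.56 and 0.56 in the other autosomal bins. These bins share their libraries and differ in base composition and in the number of mappable bases, so the values are descriptions, and the part of base composition was not tested.

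The gene-dense start of chromosome 19 was among the highest members. In 6000001 to 7000000, with 46 protein-coding genes such as Men1 (menin, a tumour suppressor), Esrra (an oestrogen-related receptor) and Bad (a promoter of apoptosis), γH2AX was 435 and 485 CPM in KO cells and 438 and 487 in WT. H2AX was 447 and 458 in KO and 439 and 452 in WT, and input 378 and 369 in KO and 357 and 354 in WT. Every γH2AX and H2AX library lay above every input library. γH2AX rose over input by 0.30 in KO (SE 0.0569, adjusted p = 0.00342) and by 0.38 in WT (SE 0.0568, adjusted p = 0.00161). The neighbouring 5000001 to 6000000, with 51 genes, rose by 0.33 in WT (adjusted p = 0.00124), and 10000001 to 11000000 of the same chromosome, with the fatty acid desaturase genes Fads1 and Fads2 and the flap endonuclease gene Fen1, by 0.30 in KO and 0.35 in WT (adjusted p = 0.00449 and 0.00204). In chromosome 8, 11000001 to 12000000, with the basement membrane collagen genes Col4a1 and Col4a2, γH2AX rose by 0.27 in KO (adjusted p = 0.0136) and 0.33 in WT (0.00466). The KO call ended without the Xray-named γH2AX library (0.18, adjusted p = 0.0524) and without the NT-named or the Xray-named input library (adjusted p = 0.0556 and 0.0675).

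Gene number alone did not place a bin. On the same chromosome, 13000001 to 14000000 holds 33 protein-coding genes, all of them olfactory receptors. There γH2AX was 345 and 307 CPM in KO cells and 332 and 302 in WT, against input of 365 and 377 in KO and 367 and 369 in WT. The bin fell by 0.19 in KO (SE 0.0549, adjusted p = 0.0163) and by 0.21 in WT (SE 0.0548, adjusted p = 0.00706); it was chosen after its values were seen. Of 15 members with olfactory or vomeronasal receptor genes, 4 were higher and 4 lower in KO and 4 and 6 in WT. Of 15 with zinc finger genes, 6 and 4 in KO and 8 and 4 in WT. Members on the chromosomes with ribosomal DNA arrays had 23 of 55 higher and 9 lower in KO, and 28 and 4 in WT, while the other autosomes had 35 and 62 of 154 in KO and 41 and 55 in WT. The members on the chromosomes with ribosomal DNA arrays include the gene-dense bins of chromosome 19. Of all bins, 25.3% were higher and 36.3% lower in KO, and 34.6% and 35.3% in WT. The other bins of these chromosomes were not counted, so the split is not shown to be particular to their proximal ends.

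The lowest members held few genes, at most 4 in those described here. In 12000001 to 13000000 of chromosome 5, whose 1 protein-coding gene is Sema3d, γH2AX was 278 and 263 CPM in KO cells and 327 and 313 in WT, H2AX 246 and 239 in KO and 292 and 274 in WT, and input 340 and 335 in KO and 398 and 389 in WT. All γH2AX and H2AX libraries of a genotype lay below its input libraries, and H2AX lay lowest. γH2AX fell by 0.32 in KO (SE 0.0397, adjusted p = 0.000829) and 0.30 in WT (SE 0.0395, adjusted p = 0.00136). H2AX fell by 0.48 in both (adjusted p = 9.9e-05 in KO and 7.56e-05 in WT). The next bin, 13000001 to 14000000 with Sema3a, fell by 0.32 and 0.28 in γH2AX and by 0.43 and 0.46 in H2AX. In 8000001 to 9000000 of chromosome 2, with no protein-coding gene, γH2AX fell by 0.31 in KO and 0.25 in WT. The gap-edge bin of chromosome 9, with no protein-coding gene, was the third lowest in KO (-0.31). Further low members were 6000001 to 7000000 of chromosome 8 (-0.27 in KO and -0.24 in WT), 5000001 to 6000000 of chromosome 9 with the caspase genes Casp1 and Casp4 (-0.30 and -0.22) and 13000001 to 14000000 of chromosome 3 with Ralyl (-0.23 and -0.23), whose KO call ended without the Xray-named γH2AX library (-0.16, adjusted p = 0.0739).

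γH2AX relative to H2AX differed in few members, nearly always upward. In KO 18 members were higher and 0 lower, against 3.41% and 0.387% of all bins. In WT 30 were higher and 4 lower, against 8.64% and 3.6% of all bins. The shares of members higher were 8.61% in KO and 14.4% in WT, those of interior bins 2.41% and 7.92%, and those of distal bins 10% and 12.9%. The median over members was 0.02 in both genotypes. These counts are unstable: DESeq2 called 45 members in KO and 78 in WT, the compared groups alone gave 0 and 16, and scaling to the autosomal total gave 11 in KO and 29 higher with 16 lower in WT. Leaving out 1 library gave 0 members (without the Xray-named H2AX KO library), 1 (without the NT-named H2AX KO library), 6 (without the Xray-named γH2AX KO library) and 43 (without the NT-named γH2AX KO library) in KO. In WT it gave 1 (without the Xray-named H2AX library), 18 (without the NT-named H2AX library) and 89 (without the NT-named γH2AX library).

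The largest excess of γH2AX over H2AX in both genotypes, and over input in KO, lay in 5000001 to 6000000 of chromosome 3, which holds Zfhx4, a zinc finger homeobox factor, and Pex2, needed to build peroxisomes. γH2AX was 958 CPM in the NT-named and 535 in the Xray-named KO library, and 715 and 491 in the WT libraries. H2AX was 255 and 253 CPM in KO cells and 310 and 295 in WT, and input 288 and 291 in KO and 349 and 345 in WT. The γH2AX libraries lay above all others, and within each genotype the NT-named one was the higher. γH2AX rose over H2AX by 1.56 in KO (SE 0.236, adjusted p = 0.0108) and by 0.99 in WT (SE 0.232, adjusted p = 0.0283), and over input by 1.37 in KO (adjusted p = 0.00243) and 0.80 in WT (adjusted p = 0.0124). The WT call over input ended without the NT-named γH2AX library (0.50, adjusted p = 0.0754) and without the NT-named or the Xray-named input library (adjusted p = 0.0542 and 0.0588). The WT call over H2AX ended without the NT-named or the Xray-named H2AX library (1.03 and 0.96, adjusted p = 0.0908 and 0.206). The KO call over H2AX ended with the compared groups alone (1.55, adjusted p = 0.148) and without the NT-named H2AX library (1.56, adjusted p = 0.136) or the Xray-named one (1.55, adjusted p = 0.128). Without the NT-named γH2AX KO library the KO excess over input was 0.89, and without the Xray-named one 1.74.

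A second bin, 11000001 to 12000000 of chromosome 16, holds Snn, Gspt1 (a translation termination factor), Rsl1d1 (a nucleolar protein) and Zc3h7a. γH2AX was 1093 and 823 CPM in KO cells and 782 and 659 in WT, against H2AX of 488 and 496 in KO and 431 and 443 in WT and input of 440 and 429 in KO and 367 and 367 in WT. All γH2AX libraries lay above all H2AX and input libraries. The excess over input was 1.14 in KO (SE 0.114, adjusted p = 0.000415) and 0.97 in WT (SE 0.114, adjusted p = 0.0011), the largest of the members in WT, and over H2AX 0.96 in KO (adjusted p = 0.00324) and 0.72 in WT (adjusted p = 0.0078). The bins on either side did not share it: in 10000001 to 11000000 γH2AX was 500 and 555 CPM in KO cells and 440 and 494 in WT, and in 12000001 to 13000000 it was 398 and 375 in KO and 345 and 339 in WT. The KO call over H2AX ended with the compared groups alone (adjusted p = 0.129) and without either H2AX KO library (0.0645 and 0.051), and the WT call without the Xray-named H2AX library (0.0771). The excess of both bins was present in KO and WT, and the difference of the excess between genotypes did not pass in either (0.57 over input and 0.56 over H2AX on chromosome 3, 0.17 and 0.24 on chromosome 16). The γH2AX level of the chromosome 16 bin itself was higher in KO than in WT by 0.41 (adjusted p = 0.00984), a call that ended with the compared groups alone (adjusted p = 0.0749) and when the Xray-named WT library of γH2AX was left out (0.29, adjusted p = 0.062).

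Smaller excesses of γH2AX over H2AX were found in 4 further named bins. In 3000001 to 4000000 of chromosome 6, with the calcitonin receptor gene Calcr, γH2AX was 439 and 359 CPM in KO cells and 432 and 381 in WT, against H2AX of 300 and 297 in KO and 352 and 348 in WT. It passed in KO (0.42, SE 0.0819, adjusted p = 0.0311), while WT had 0.22 (adjusted p = 0.105), and the difference between them did not pass. In 9000001 to 10000000 of chromosome 12, with Osr1, a transcription factor gene of mesenchyme and kidney, γH2AX was 394 and 398 CPM in KO cells and 425 and 425 in WT, against H2AX of 346 and 339 in KO and 350 and 345 in WT and input of 407 and 406 in KO and 422 and 413 in WT. γH2AX rose over H2AX by 0.21 in KO (SE 0.023, adjusted p = 0.0028) and by 0.29 in WT (SE 0.023, adjusted p = 0.000265), with H2AX below and γH2AX near input. Klf6 (a zinc finger factor; chromosome 13, 5000001 to 6000000) had γH2AX over H2AX at 0.24 in WT (adjusted p = 0.0063), with both below input, H2AX at -0.45 and γH2AX at -0.21 (adjusted p = 0.00192). In 5000001 to 6000000 of chromosome 2, with the replication gene Mcm10 and the autophagy receptor gene Optn, γH2AX was 583 and 552 CPM in KO cells and 563 and 549 in WT, against H2AX of 493 and 493 in KO and 476 and 479 in WT, and rose over H2AX by 0.20 and 0.22 (adjusted p = 0.0108 and 0.0061). With the compared groups alone the KO calls of the chromosome 6, 12 and 2 bins ended (adjusted p = 0.369, 0.148 and 0.384). They also ended without the Xray-named H2AX KO library (0.245, 0.051 and 0.128), and those of chromosomes 6 and 2 without the NT-named one (0.237 and 0.136). The WT calls of the Klf6 and chromosome 2 bins ended without the Xray-named H2AX WT library (0.0887 and 0.0738). The 4 members lower in WT were the first 3 bins of chromosome 14 (-0.12 to -0.13) and 11000001 to 12000000 of chromosome 7 (-0.13). All 4 calls ended with the compared groups alone (adjusted p from 0.214 to 0.292), without the Xray-named γH2AX WT library and without either H2AX WT library. With DESeq2 size factors, and without the read-rich and gap-edge bins, all but the third bin of chromosome 14 ended.

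**Figure D2:**
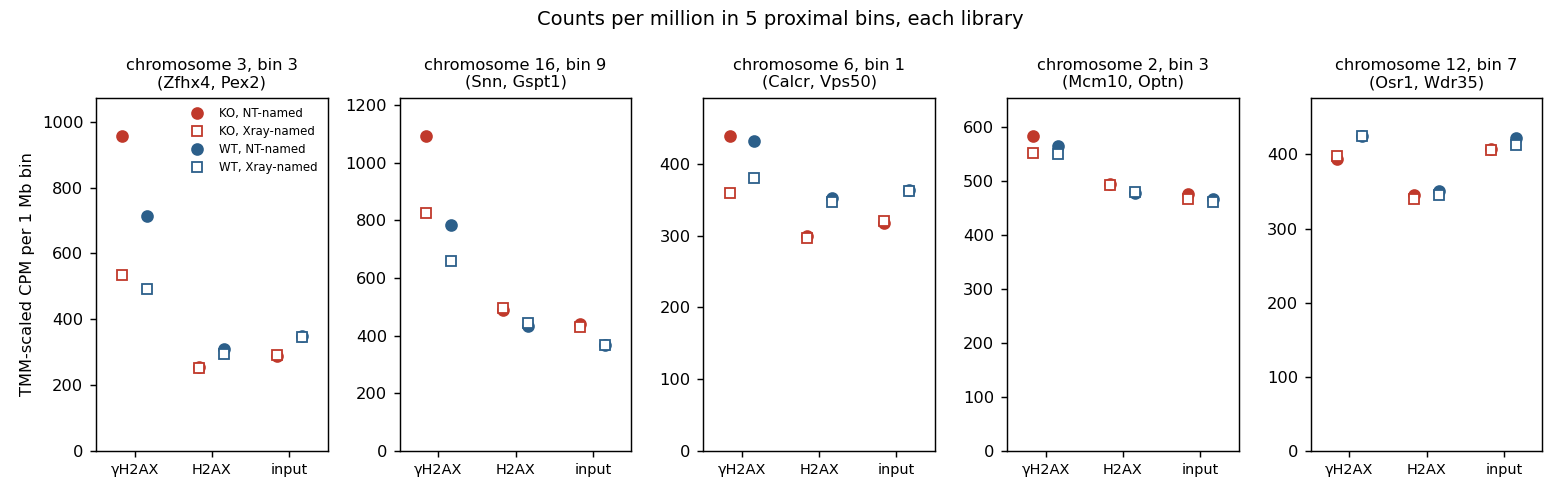
CPM per 1 Mb bin (TMM-scaled, axis from 0) in 5 proximal bins for γH2AX, H2AX and input, with 1 point per library, KO in red left of WT in blue, NT-named filled and Xray-named open. In the chromosome 3 bin γH2AX spans 491 to 958 CPM and H2AX 253 to 310, and in the chromosome 12 bin γH2AX (394 to 425 CPM) lies above H2AX (339 to 350) and near input.

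The parental origin of reads could be followed in the 6 WT libraries of the clone table, where the authors counted reads assigned to genome1, to genome2 or to neither; which genome is C57BL6 and which CAST was not given. Replicate 2 of these libraries is the NT-named WT library, and replicate 1 is neither WT library of the WT/KO table. In the median member 58.9% to 66.1% of reads were assigned. In the chromosome 3 bin the assigned share was 27.9% and 28.6% in γH2AX, against 60.3% and 58.3% in H2AX and 53.4% and 58.1% in input. Unassigned reads there made up 420 and 513 CPM of the autosomal total in γH2AX, against 86.2 and 118 in H2AX and 150 and 136 in input. Reads of genome1 were no higher in γH2AX (91.5 and 116 CPM) than in input (126 and 143), and those of genome2 were 76.6 and 96.6 in γH2AX and 64.6 and 74.1 in input. The chromosome 16 bin behaved likewise, with an assigned share of 45.5% and 37.8% in γH2AX, 74.4% and 70.8% in H2AX and 65.1% and 70% in input. Its unassigned reads were 417 and 486 CPM in γH2AX, against 130 and 128 in H2AX and 138 and 114 in input. Most of the excess of γH2AX in these 2 bins thus consisted of reads that no parental difference assigned.

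The balance of the parental genomes in γH2AX relative to input was tested in 208 members (the gap-edge bin of chromosome 9 had too few assigned reads), with a model of library, genome and assay. It fell toward genome2 in 4 members and rose toward genome1 in 0, against 1.09% lower and 1.4% higher of 2577 bins. On chromosome 10, 11000001 to 12000000, with Shprh, which encodes a helicase and ubiquitin ligase, and Epm2a, which encodes laforin, had a genome1 share of 48.7% and 49% in γH2AX, against 60.1% and 59% in H2AX and 59.5% and 59% in input. Genome2 reads were 185 and 194 CPM in γH2AX and 125 and 140 in input, while genome1 reads were 175 and 186 in γH2AX and 183 and 201 in input. The log2 ratio of genome1 to genome2 fell by 0.60 relative to input (SE 0.024, adjusted p = 5.33e-35), in a bin where total γH2AX over input was 0.11 in WT (adjusted p = 0.133) and γH2AX over H2AX 0.21 (adjusted p = 0.0461). In the Mcm10 and Optn bin of chromosome 2 the genome1 share was 51.9% and 49.8% in γH2AX, against 57.4% and 57.6% in H2AX and 57.8% and 57.7% in input (-0.41, SE 0.024, adjusted p = 1.12e-24). Genome2 reads were 225 and 214 CPM in γH2AX, against 142 and 151 in input. Genome1 reads were 242 and 213 CPM in γH2AX, against 195 and 206 in input, so they also rose in replicate 1. H2AX there had 231 and 205 CPM for genome1 and 172 and 151 for genome2. The other 2 were the chromosome 3 bin (-0.69, adjusted p = 3.77e-28) and 3000001 to 4000000 of chromosome 11 (-0.19, adjusted p = 8.08e-11). H2AX relative to input was higher for genome1 in 6 members and lower in 6, against 4.46% and 2.72% of all bins. Of these the chromosome 3 bin (-0.19) and the chromosome 11 bin (-0.17) were also among the 4 of γH2AX. On chromosome 11 the shift in H2AX was nearly as large as in γH2AX (-0.19), and on chromosome 3 it was smaller (-0.69 in γH2AX). Neither the chromosome 10 bin (0.02) nor the chromosome 2 bin (-0.01) passed in H2AX. Without 1 library, 4 (without H2AX WT replicate 1) to 15 members passed in H2AX, 5 without either input WT library, and 4 to 5 in γH2AX.

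Input itself was not balanced between the parental genomes. The median member had 57.5% of assigned input reads from genome1 in both WT libraries, close to interior bins (56.1% and 56%) and above distal bins (51.3% and 51.6%). By chromosome, the members' input share of genome1 ran from 26.9% and 27.1% on chromosome 16 to 71.3% and 71.3% on chromosome 6, against 29.8% and 29.7% and 66.7% and 66.8% over the rest of these chromosomes. The lowest bins were 7000001 to 8000000 of chromosome 16 (9.08% and 9.27%), and 6000001 to 7000000, with Rbfox1, a regulator of splicing (11.2% and 10.1%), between neighbours at 24% and 23.6% and at 30.6% and 31.6%. The γH2AX libraries gave 9.16% and 9.27% in the first of these bins and H2AX 9.04% and 9.95%. Total input in WT was 314 and 327 CPM there, against 319 and 329 in 9000001 to 10000000 (NT-named and Xray-named libraries). Chromosome 1 had the third lowest bin, 8000001 to 9000000 with Sntg1 (23.1% and 22.7%). The highest were 3 bins of chromosome 6, 12000001 to 13000000 (73.5% and 73.6%), 13000001 to 14000000 and 5000001 to 6000000. Imprinted genes are expressed from 1 parental copy. Those on a short list used here lie in 4 members: Peg10 and Sgce on chromosome 6, Peg3, Usp29 and Zim1 on chromosome 7, Grb10 on chromosome 11 and Igf2r, Airn and Slc22a3 on chromosome 17. Imprinted genes outside this list were not looked up. In none of these 4 did the parental balance of γH2AX or H2AX relative to input pass (-0.04, 0.02, 0.01 and -0.02 in γH2AX, and -0.03, 0.05, 0.09 and 0.01 in H2AX).

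Between KO and WT cells the proximal ends moved with their chromosomes, in γH2AX, H2AX and input alike. In γH2AX 57 members were higher and 66 lower in KO (30.1% and 30.1% of all bins), in H2AX 60 and 74 (30.6% and 32.6%), and in input 65 and 54 (32.1% and 25.4%). The mean change of the 11 members of a chromosome followed that of its other bins, with a correlation over 19 chromosomes of 0.97 for γH2AX, 0.96 for H2AX and 0.97 for input DNA. All 11 bins make one value here, and the chromosomes share the same libraries. Members differed from the rest of their chromosome by -0.13 to 0.10 in γH2AX and by -0.14 to 0.09 in input. Scaling to the autosomal total gave 57 higher and 80 lower in input, and 60 members passed in γH2AX with the compared groups alone.

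The start of chromosome 10 was highest in KO. In 4000001 to 5000000, with the oestrogen receptor gene Esr1, γH2AX was 678 and 727 CPM in KO cells and 513 and 547 in WT cells, without overlap. The change was 0.41 for γH2AX (SE 0.0385, adjusted p = 2.44e-05), 0.43 for H2AX (adjusted p = 1.9e-05) and 0.45 for input DNA (adjusted p = 1.37e-05). The mean over the 11 members was 0.39, 0.39 and 0.42 in γH2AX, H2AX and input, and over the rest of the chromosome 0.39, 0.40 and 0.42. The start of chromosome 6 was lower, at -0.23, -0.26 and -0.24 in the same order, against -0.26, -0.27 and -0.25 over the rest. Its bin 5000001 to 6000000, with the paraoxonase genes Pon1, Pon2 and Pon3, fell by 0.29 in γH2AX, 0.29 in H2AX and 0.31 in input (adjusted p = 1.1e-05, 1.01e-05 and 7.06e-06). Chromosomes 11 and 9 departed most from their other bins. On chromosome 11 the members had 0.00 in γH2AX, -0.03 in H2AX and 0.03 in input, against 0.13, 0.13 and 0.17 over the rest. On chromosome 9 they had 0.19, 0.19 and 0.23, against 0.09, 0.09 and 0.13.

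A single bin departed from its neighbours in all assays. In 11000001 to 12000000 of chromosome 7, with Zscan4c, Zscan4d and Zscan4f, zinc finger genes of the early embryo, and 5 vomeronasal receptor genes, γH2AX was 185 and 175 CPM in KO cells and 234 and 224 in WT. H2AX was 189 and 192 in KO and 245 and 254 in WT, and input 179 and 182 in KO and 228 and 229 in WT. No KO library overlapped a WT library of its assay. γH2AX fell by 0.34 (SE 0.0356, adjusted p = 3.82e-05), H2AX by 0.39 and input DNA by 0.34, against a mean of -0.11 over the 11 members of the chromosome in γH2AX. These families hold near-identical copies, so reads may be shared between bins.

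**Figure D3:**
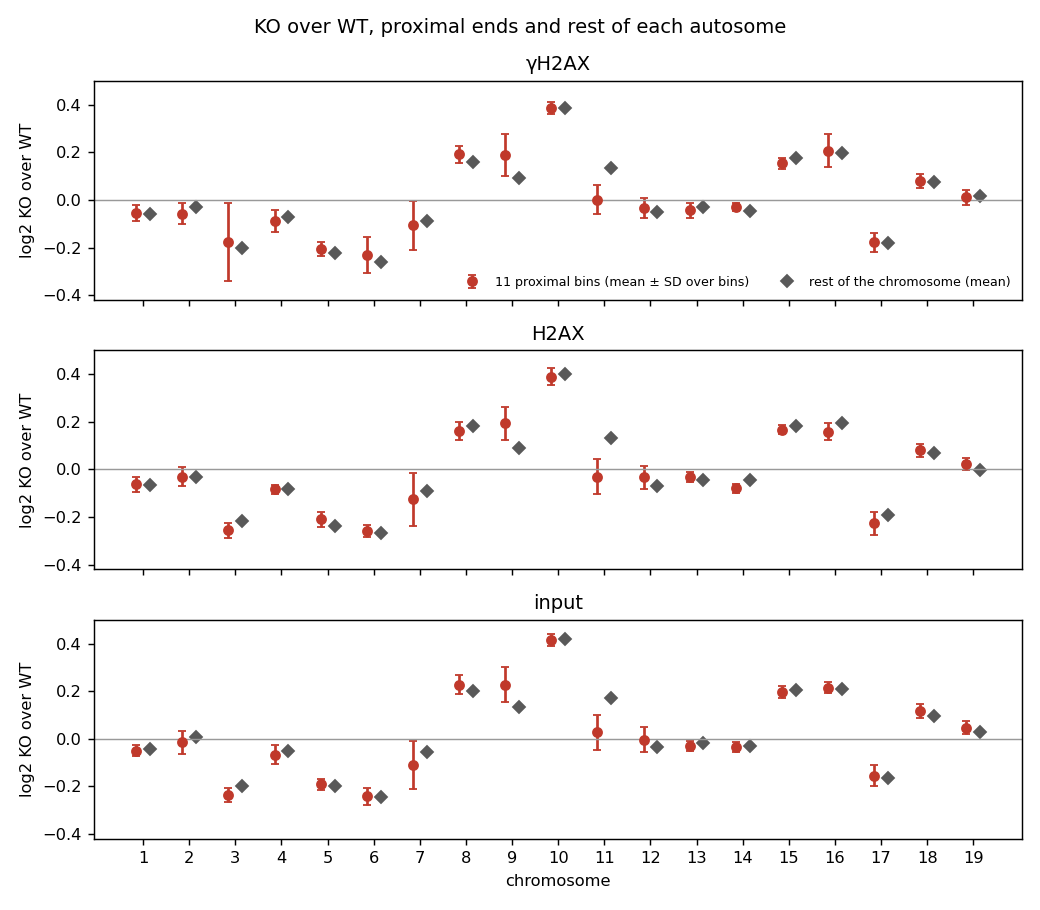
Log2 change of KO over WT in γH2AX, H2AX and input for each autosome, with the mean ± SD over the 11 proximal bins (circles, left) and the mean over all other bins of the chromosome (diamonds, right). The 2 symbols lie close together on most chromosomes, from about 0.39 in γH2AX on chromosome 10 to -0.23 on chromosome 6, and are farthest apart on chromosomes 11 and 9.

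Relative to input or to H2AX, no member differed between KO and WT by edgeR's quasi-likelihood test without pairing of libraries. This held for γH2AX over input (0 of 209, against 0.0387% of all bins), H2AX over input (0, against 0% of all bins) and γH2AX over H2AX (0, against 0.155%). At an unadjusted p under 0.05 there were 1, 10 and 8 members, and DESeq2 called 0, 1 and 2. The largest value was that of the chromosome 3 bin (0.57 and 0.56), and of the 209 members 206, 197 and 199 lay within 0.1 of 0 on the log2 scale, with a median SE of 0.0495 in each. With the compared groups alone, 4 members passed for H2AX over input. A block pairing same-named libraries called members for γH2AX and for H2AX over input, but not for γH2AX over H2AX (counts in the closing section). Deviations of same-named KO and WT libraries correlated at 0.959 in γH2AX, 0.681 in H2AX and 0.486 in input.

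In the clones, input libraries are not analysed here, so γH2AX was set against H2AX alone. γH2AX was higher than H2AX in 56 members and lower in 32 in KO clones with SIRT7-WT (30.6% and 25.1% of all bins), in 58 and 36 in HY clones (31.6% and 27.9%) and in 58 and 40 in KO clones (32.6% and 29.9%). The medians over members were 0.06, 0.07 and 0.07, over interior bins -0.03, -0.03 and -0.04, and over distal bins -0.32, -0.36 and -0.35. By distance the medians gave no steady course: the first bin had -0.12, -0.07 and -0.12, the fifth, the highest, 0.23, 0.24 and 0.28, the sixth -0.12, -0.08 and -0.09, and the eleventh 0.06, 0.11 and 0.03. Scaling to the autosomal total brought the median of all bins to between 0.15 and 0.19 and gave 82 higher and 26 lower members with SIRT7-WT, 90 and 26 in HY clones and 88 and 29 in KO clones. Of the KO clones 65 members passed without γH2AX replicate 2, and of those with SIRT7-WT 52 without H2AX replicate 2 and 56 without γH2AX replicate 2.

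In the clones the direction of a member in γH2AX over H2AX went against its gene content. Of the 49 gene-poor members, γH2AX was higher than H2AX in 33 in KO clones with SIRT7-WT, 32 in HY clones and 34 in KO clones, and lower in 0. Of the 39 gene-rich members 2 were higher in each, and 16, 17 and 20 were lower. The rank correlation with gene number over members was -0.62, -0.62 and -0.63, against 0.20 in KO cells and 0.28 in WT cells of the WT/KO table. Over the 2205 other autosomal bins it was -0.70, -0.71 and -0.72 in the clones, and 0.25 and 0.37 in KO and WT cells. The relation was thus not particular to the proximal ends. In KO and WT cells 3 and 5 gene-poor members were higher and 0 lower, and of the gene-rich members 0 were higher in KO and 1 in WT, with 0 and 3 lower. In KO clones over WT of the clone table the gene-poor median was -0.55 in H2AX and 0.02 in γH2AX. The gene-rich medians were 0.26 and -0.12. Clone γH2AX was not set against input, so this direction is not that of the ratio to input given above.

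In 5000001 to 6000000 of chromosome 19, with 51 genes, γH2AX was 716 and 703 CPM in KO clones with SIRT7-WT, 539 and 627 in HY clones and 575 and 520 in KO clones. H2AX was 1048 and 1203, 911 and 1306, and 944 and 1195 CPM in the same order. Each γH2AX library lay below each H2AX library of its group. The log2 changes were -0.67 (SE 0.169, adjusted p = 0.0052), -0.94 (SE 0.17, adjusted p = 0.000833) and -0.97 (SE 0.17, adjusted p = 0.000513). At the other end, 6000001 to 7000000 of chromosome 8, with no protein-coding gene, had γH2AX of 239 and 256, 249 and 233, and 260 and 289 CPM, against H2AX of 149 and 141, 147 and 124, and 157 and 143 CPM. Its changes were 0.77, 0.82 and 0.87 (adjusted p = 0.00189, 0.000644 and 0.000433). The olfactory receptor bin of chromosome 19 lay with the gene-poor bins, at 0.58, 0.59 and 0.69, although it holds 33 genes. The chromosome 3 bin had γH2AX over H2AX at 1.10, 0.83 and 0.84. The chromosome 16 bin had -0.27, -0.56 and -0.54.

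**Figure D4:**
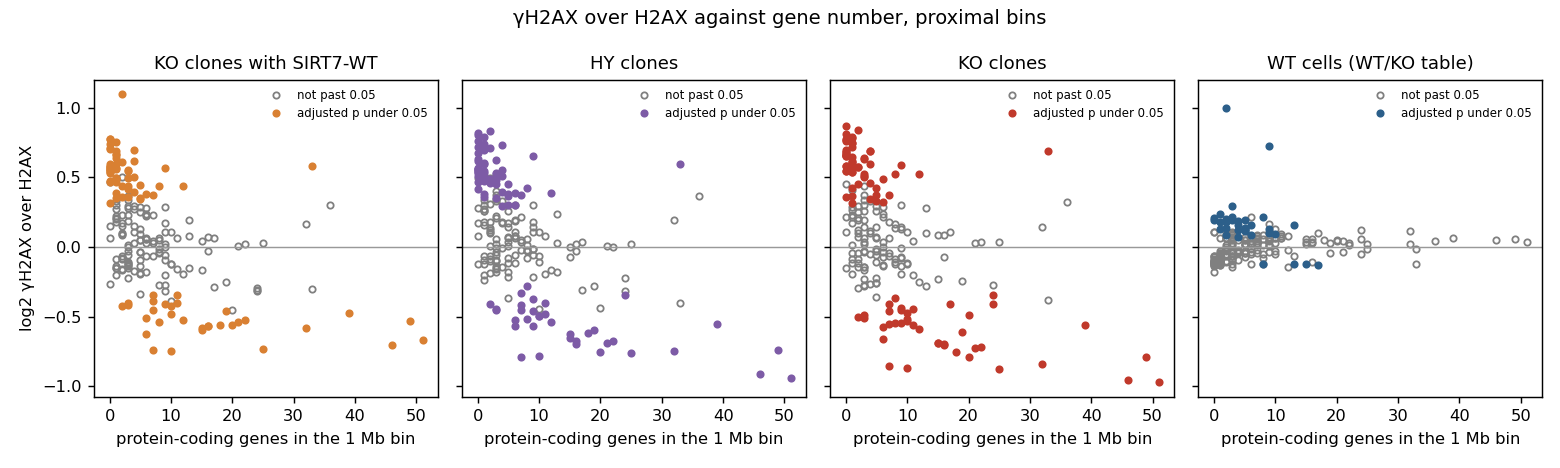
Log2 change of γH2AX over H2AX against the number of protein-coding genes in each of the 209 proximal bins, in KO clones with SIRT7-WT, HY clones, KO clones and WT cells, with filled points for an adjusted p under 0.05. In the clones the filled points of bins with fewer than 2 genes all lie above 0 and most of those of gene-rich bins below, with rank correlations of -0.62, -0.62 and -0.63, and in WT cells the spread is narrow apart from the bins of chromosomes 3 and 16.

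SIRT7-WT or HY clones did not differ from KO clones in a member by edgeR's quasi-likelihood test without pairing of libraries. For KO clones with SIRT7-WT over KO clones, 0 members passed in γH2AX (0.0387% of all bins) and 0 in H2AX (0% of all bins), with 3 and 0 at an unadjusted p under 0.05 and 0 and 0 by DESeq2. The values ran from -0.35 to 0.37 in γH2AX and from -0.24 to 0.08 in H2AX, with a median SE of 0.134. For HY over KO clones, 0 members passed in γH2AX (0.0387% of all bins) and 0 in H2AX (0.0387% of all bins), with 25 and 29 at an unadjusted p under 0.05, and 11 and 13 by DESeq2. Without HY replicate 2 of the assay 6 members passed in each. The lowest values were on chromosome 15, at -0.62 in γH2AX (13000001 to 14000000) and -0.66 in H2AX (11000001 to 12000000). A block by column replicate number called members in HY over KO clones in both assays (counts in the closing section), though HY and KO clones share no clone label. Clones with SIRT7-WT and KO clones are by label the same clones, c22 and c9. The same block called 0 members between them in γH2AX and 0 in H2AX. Deviations of their same-numbered libraries correlated at 0.854 in γH2AX and 0.936 in H2AX over bins. Which column number is which clone is not given.

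KO clones were also set against the 2 WT libraries of the same table, of which replicate 2 is the NT-named WT library again. Replicate 1 is neither WT library of the WT/KO table. It held 135517343 γH2AX reads, against 248337642 in the NT-named and 251858055 in the Xray-named library. In γH2AX 0 members were higher and 5 lower, against 0.0387% and 0.62% of all bins. Leaving out 1 library gave 2 members (without KO clone replicate 1 or WT replicate 2), 3 (without KO clone replicate 2) or 4, and 2 passed without the read-rich and gap-edge bins in the scaling. Scaling to the autosomal total shifted the median of all bins to 0.13 and gave 12 higher and 5 lower. In H2AX 45 were higher and 63 lower, against 25.9% and 27% of all bins. Without KO clone replicate 2 or without WT replicate 2, 50 members passed in H2AX. Of the 49 gene-poor members 34 were lower in H2AX and 0 higher, with a median of -0.55, and of the 39 gene-rich members 17 were higher and 4 lower, with a median of 0.26. The rank correlation of the H2AX change with gene number was 0.57 over members and 0.66 over 2205 other autosomal bins. The gene-poor and gene-rich medians in H2AX were -0.03 and 0.02 in clones with SIRT7-WT over KO clones. They were 0.03 and 0.08 in HY over KO clones, and -0.06 and 0.00 in KO over WT cells. Clones and WT cells form different sample sets, so the part of SIRT7 loss in this difference was not tested. The highest were 12000001 to 13000000 of chromosome 15, with Drosha, which cuts microRNA precursors (0.88, adjusted p = 0.000351), and 11000001 to 12000000 of chromosome 8 (0.87, adjusted p = 0.000757). Among the lowest were 9000001 to 10000000 of chromosome 6, with Nxph1 (-0.97), and 6000001 to 7000000 of chromosome 12, with no protein-coding gene (-0.94, both adjusted p = 0.000351).

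The largest differences between clones and WT cells lay in the bins next to the assembly gap. The bin 2000001 to 3000000 of chromosome 9 held 479 and 717 γH2AX reads in KO clones, against 6170 and 13575 in WT, or 4.03 and 5.68 CPM against 47 and 55.9. Its H2AX level was 5.76 and 5.01 CPM in KO clones, against 61.3 and 60.2 CPM in WT. It fell by 3.39 in γH2AX (SE 0.255, adjusted p = 1.56e-06) and by 3.47 in H2AX (SE 0.256, adjusted p = 8.32e-07). Clones carrying SIRT7-WT had 4.12 and 3.53 CPM in γH2AX and HY clones 3.58 and 5.32, so all clone libraries lay together below WT. KO cells outside the clone set did not share this, with γH2AX of 52.3 and 46.9 CPM in KO cells and 55 and 42.8 in WT of the WT/KO table.

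The next bin, 3000001 to 4000000 of chromosome 9, with the tRNA-modifying enzyme gene Alkbh8, was the member with the most reads in every library. In the clone table it stood 12.9 and 19.7 times above the median autosomal bin in γH2AX of KO clones, against 35.2 and 45.3 times in WT, and fell by 1.35 (SE 0.254, adjusted p = 0.015), a call that ended without KO clone replicate 1 (-1.07, adjusted p = 0.121) and without WT replicate 2 (-1.20, adjusted p = 0.143). In KO cells of the other table it stood 44.9 and 40.1 times above that median, against 45.3 and 35.3 in WT cells, with 46.6 and 46.9 in input of KO and 44 and 42.5 in input of WT. Only 0.9% to 1.08% of its reads in WT were assigned to a parental genome. In 3000001 to 4000000 of chromosome 12, with the DNA methyltransferase gene Dnmt3a and the hormone precursor gene Pomc, the ratio was 2.82 and 3.45 in KO clones against 5.56 and 6.05 in WT (-0.94 in γH2AX, SE 0.134, adjusted p = 0.00157). The fourth read-rich bin, 3000001 to 4000000 of chromosome 11 with Sfi1, a centrosomal gene, did not share the decrease. It stood at 6.87 and 6.33 in KO clones and 7.68 and 6.54 in WT (-0.16). In H2AX this bin stood at 8.51 and 8.85 in KO clones and 7.68 and 6.42 in WT. The other 2 members lower in γH2AX were the bins of chromosomes 3 (-0.82) and 16 (-0.62) described above, both with an adjusted p of 0.0285, and both calls ended without either KO clone library or without WT replicate 2, that of chromosome 16 also without WT replicate 1 (adjusted p from 0.0922 to 0.516). Whether the reads of clones and WT were aligned and filtered alike is not given in the sources used here, and its part in these differences was not tested.

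**Figure D5:**
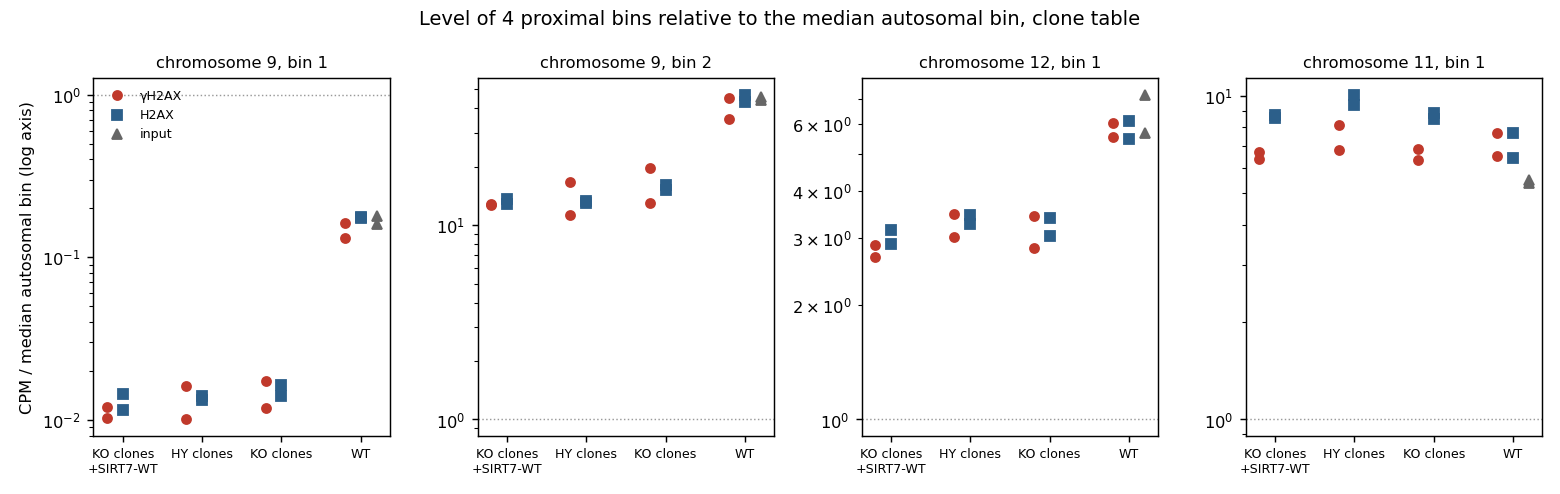
Level of 4 read-rich or gap-edge proximal bins as a multiple of the median autosomal bin of the same library (log axis) in the clone table, for KO clones with SIRT7-WT, HY clones, KO clones and WT, with 1 point per library. On chromosome 9 all clone libraries lie below the WT libraries, at 0.01 to 0.02 against 0.13 to 0.18 in bin 1, and on chromosome 11 clone and WT libraries overlap in γH2AX.

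Within the WT and KO table most first bins had γH2AX above input. Of 19 first bins, 11 were higher than input and 2 lower in KO, where 25.3% and 36.3% of all bins were, and 11 and 1 in WT, against 34.6% and 35.3% of all bins. Their changes ran from -0.31 in the gap-edge bin of chromosome 9 to 0.34 in the Sfi1 bin of chromosome 11 in KO. In the Sfi1 bin γH2AX was 2389 and 2529 CPM in KO cells and 2202 and 2335 in WT, against input of 1931 and 1959 in KO and 1789 and 1810 in WT (0.34 in KO and 0.33 in WT, adjusted p = 0.0012 and 0.00138). H2AX was 2236 and 2298 CPM in KO cells and 2152 and 2261 in WT. The gap-edge bin had γH2AX of 52.3 and 46.9 CPM in KO against input of 61.3 and 61.8, and passed in KO (adjusted p = 0.0361), while WT had -0.24 (adjusted p = 0.0791). The difference between them did not pass, and the KO call ended without the Xray-named γH2AX library (-0.22, adjusted p = 0.234) and without the NT-named or the Xray-named input library (0.105 and 0.119). In chromosome 9, 3000001 to 4000000, γH2AX was 14703 and 13316 CPM in KO cells and 15260 and 12053 in WT, against input of 15347 and 15455 in KO and 14637 and 14062 in WT. The γH2AX and input libraries overlapped in WT, and the changes were -0.14 in KO and -0.07 in WT.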

How the data were processed

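Raw counts of reads in 1 Mb bins come from 2 tables deposited by the authors, build mm10 per the submitters' processing notes, which name Bowtie2 2.2.9, SAMtools 0.1.19 and deepTools 2.4.2. How duplicates, multiply aligned reads and parental genomes were handled is not given in the sources used here. Members and lists were chosen with earlier results of these data known. Of 144 value columns 48 were used. The 96 others were 72 parental columns matched to a group only and 24 input columns of clones with no labelled sample. WT replicate 2 of the clone table equals the NT-named WT library. WT replicate 1 equals neither WT library of the WT/KO table, so the deposited WT libraries outnumber the labelled WT samples. Separate cultures are not stated, so p-values measure only how these samples vary, which may be technical.

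Counts were tested with edgeR 4.0.16 in R 4.3.3 (quasi-likelihood F test, TMM factors, bins with a mean of at least 100 counts, two-sided), in 1 fit per table, and another of clones with WT. The spread between libraries of a group, as the square root of edgeR's common dispersion, was 3.23%, 11.4% and 11.2%. The parental fit had a block per library, a genome term and genome by assay terms. CPM are TMM-scaled. With 2 against 2 no permutation p can fall below 0.333. Alternatives were DESeq2 1.42.0, other scalings, no filter, the compared groups alone, a block, and leaving out each library. Named bins were, per comparison, up to 5 members in each direction (8 for γH2AX over input) with the largest change past 0.05 and no overlap of libraries, plus first bins, imprinted genes and parental extremes. Genes are from RefSeq, GRCm38.p6. None of 18 DNA damage response genes lay in a member.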

Additional observations from a re-analysis of the deposited data

How the results depend on the processing

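Counts of members past the threshold were recomputed under each alternative, and those below left the main count by over 1.5 times. With the compared groups alone, 73 members passed in γH2AX over input of KO (129 in all libraries), 156 in H2AX over input of KO (101), 0 and 16 in γH2AX over H2AX of KO and WT (18 and 34), 60 in γH2AX of KO over WT (123), 4 in the KO minus WT difference of H2AX over input and 11 in H2AX of HY over KO clones. DESeq2's Wald test gave 45 and 78 in γH2AX over H2AX of KO and WT, 1 and 2 in the KO minus WT differences of H2AX over input and γH2AX over H2AX, and 11 and 13 in γH2AX and H2AX of HY over KO clones. Scaling to the autosomal total gave 11 in γH2AX over H2AX of KO, 3 in H2AX of HY over KO clones and 17 in γH2AX of KO clones over WT, and members' median levels over input of -0.0243 in γH2AX of WT, -0.0262 in H2AX of KO and -0.0303 in H2AX of WT. Leaving the 4 read-rich or gap-edge bins out of scaling and fit, an alternative chosen after seeing the data, gave 9 in γH2AX over H2AX of KO and 2 in γH2AX of KO clones over WT.

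A replicate block paired libraries of the same name (NT-named or Xray-named), or columns of the same replicate number in the clone table. HY clones, KO clones and WT share no clone label, so pairs among them rest on the column number only. With this block 167 members passed in H2AX over input of WT, 99 and 148 in γH2AX over H2AX of KO and WT, 18 and 22 in the KO minus WT differences of γH2AX and H2AX over input, 38 and 47 in γH2AX and H2AX of HY over KO clones and 27 in γH2AX of KO clones over WT. The block gave 163 and 173 in γH2AX over input of KO and WT, 151 in H2AX over input of KO, 163, 168 and 170 in γH2AX, H2AX and input of KO over WT, 114, 122 and 127 in γH2AX over H2AX of clones with SIRT7-WT, HY clones and KO clones, 122 in H2AX of KO clones over WT and 0 in the rest. Deviations of same-named KO and WT libraries correlated at 0.959 in γH2AX, 0.681 in H2AX and 0.486 in input over bins, with 2 pairs each, and no label says that a name or number marks a shared culture.

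Leaving out 1 library at a time gave 55 to 147 members in γH2AX over input of KO and 82 to 139 of WT, 47 to 69 and 65 to 98 in H2AX over input, 0 to 43 and 1 to 89 in γH2AX over H2AX, 52 to 75 in γH2AX over H2AX of clones with SIRT7-WT and 65 to 101 of KO clones, 0 to 6 in γH2AX and in H2AX of HY over KO clones, 2 to 4 in γH2AX and 50 to 98 in H2AX of KO clones over WT, and 4 to 15 in the parental H2AX test. Of 1612 recomputed values of named bins 1521 kept direction and side of the threshold, 91 no longer passed and 0 reversed. The causes were not tested. The lowest depth was in the gap-edge bin of chromosome 9, with 259 to 879 reads in the clones.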
